A study of Arabidopsis thaliana with 24 samples.

Results

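S2 is a suppressor line of the anthocyanin mutant *tt19-8* of *Arabidopsis thaliana*, and its transcripts were compared here with those of the wild type Col-0. The comparison rests on 6 of the 24 RNA-seq libraries of the study, the 3 labelled S2 and the 3 labelled Col-0, and on 22089 of the 33331 genes listed, those with enough counts to be tested. S2 carries the T-DNA insertion *tt19-8* in *TT19* and a nonsense change in *RDR6*. It is a single isolate of a population mutagenized with ethyl methanesulfonate, so that further changes in its genome, which were not analysed here, cannot be told apart from the one in *RDR6*. The references were the parent line *tt19-8* (3 libraries), which has the insertion alone, and Col-0, which has neither change, and S8 (3 libraries), another *tt19-8* line with a nonsense change in *RDR6*, was used where S2 was set against a second line. All were whole seedlings that had been shaken for 4 days in medium with 3% sucrose under 24 h of light per day, which induces anthocyanin. The question was which wild-type transcript levels stayed displaced in the double mutant and which were overshot.

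Anthocyanins are made in the cytosol from phenylalanine by chalcone synthase and the enzymes that follow it, and are then stored in the vacuole. TT19 is a phi-class glutathione S-transferase that can bind flavonoids such as cyanidin. The study calls its part in pigment accumulation unclear, and names stabilization of anthocyanins and cooperation with vacuolar transporters as possible roles. The study also concludes that anthocyanins, if enough are made, can accumulate without TT19. RDR6 is an RNA-dependent RNA polymerase that copies cleaved *TAS* transcripts into double-stranded RNA, from which DCL4 cuts trans-acting siRNAs (tasiRNAs). These guide the cleavage of other mRNAs: *TAS3* siRNAs act on auxin response factor genes, *TAS1* and *TAS2* siRNAs on *HTT* and pentatricopeptide repeat (PPR) genes, and *TAS4* siRNAs on *PAP1* and its MYB relatives, which switch on the late anthocyanin genes.

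The match between precursor and target is given for the pairs on which the tasiRNA results turn. Each pair is a 21-base window of the precursor and of the target's coding exons with the fewest mismatches (for *TAS3* with *ARF4* and for *TAS1C* with *HTT1*, 1 of 2 windows with equally few), read from the TAIR10.1 assembly with the RefSeq gene models, with the precursor written in the orientation of the target and capitals in the target marking a mismatch. A match describes the 2 sequences and is not evidence of cleavage in these samples. The *TAS4* window is at chr3:9417736-9417756 (minus-strand gene), the *PAP1* window at chr1:21234021-21234041 (minus strand) and the *PAP2* window at chr1:24765073-24765093 (plus strand). The *TAS3* window is at chr3:5862205-5862225 (plus strand), *ARF3* at chr2:14325941-14325961 (minus strand) and *ARF4* at chr5:24309507-24309527 (minus strand). The *TAS1C* window is at chr2:16537835-16537855 (minus strand) and *HTT1* at chr4:14577243-14577263 (plus strand).
TAS4: gcctcgacctcgatccttcac
PAP1: gcctcgacctcgatccttcac
PAP2: gcctcgacctcgatccttcTc
TAS3: gggtcttacaaggtcaagaaa
ARF3: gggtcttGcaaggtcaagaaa
ARF4: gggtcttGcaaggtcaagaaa
TAS1C: aatacgctatgttggacttag
HTT1: aaCacgAtatgttggacttag
*PAP1* matched *TAS4* with 0 mismatches and *PAP2* with 1, the *ARF3* and *ARF4* windows matched the same stretch of *TAS3* with 1 mismatch each, and *HTT1* matched *TAS1C* with 2.

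Levels are given in CPM, a gene's counts relative to 1e6 counts of its library, scaled by TMM. A gene was called where edgeR's quasi-likelihood F test gave a Benjamini-Hochberg adjusted p under 0.05 over the 22089 genes, whatever its fold change. A change stands for a log2 fold change against Col-0, given with its standard error (SE), where nothing else is said, and each genotype had 3 libraries. In units of 1e6 counts, the libraries held 43.5, 50.1 and 58.4 in S2, 36.3, 43.0 and 37.8 in *tt19-8* and 48.0, 46.3 and 40.6 in Col-0, and the 24 libraries 25.8 to 73.4. Replicate 3 stood apart in these 3 genotypes and in S8. In S2 the chi-square per degree of freedom between replicates 1 and 2 was 7.89, and that of replicate 3 against them was 90.2 and 87.3. The values of the same 3 pairs were 5.66, 61.6 and 67.4 in *tt19-8*, 9.73, 29.5 and 22.1 in S8 and 6.91, 23.8 and 21.7 in Col-0. The summed level of 21 low-oxygen genes was 3011, 2876 and 5670 CPM in S2, 2924, 2832 and 10618 CPM in *tt19-8*, 4269, 4248 and 8798 CPM in S8 and 2988, 2863 and 1939 CPM in Col-0, so that replicate 3 was high in the mutants and low in Col-0. The part of this difference in the results below was not tested, and values of S2 against Col-0 without S2 replicate 3 are given where the call of a named gene is lost, the sign of a printed list median turns, or a list's count or median fold change moves by over 1.5 times. Summed markers of shoot (332, 322 and 276 CPM in S2, against 313, 297 and 316 CPM in Col-0) and of root (423, 420.1 and 371 CPM in S2, against 447, 440 and 442 CPM in Col-0) showed both organs in every library. In whole seedlings, a change in the number of cells of a type and one in the RNA per cell cannot be told apart.

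In S2, 6027 genes were called against Col-0, 27.3% of those tested, with 3096 higher (14.0%) and 2931 lower (13.3%), and 1430 of them (6.47%) changed at least 2-fold. Without S2 replicate 3 the count was 4450, and in a fit of the 6 libraries alone it was 3321. In the parent line *tt19-8*, 3011 genes were called against the same Col-0 libraries (13.6%; 7.13% higher and 6.50% lower). Of these 3011, 1521 were called in S2 with the same sign and are termed not restored (6.89% of genes tested), 81 were called with the opposite sign and are termed overshot (0.367%), and 1409 were not called in S2. Another 4425 genes were called in S2 and not in *tt19-8*, and are termed called in S2 alone. The term leaves the other suppressor lines aside and does not make a gene particular to S2. Between S2 and S8, for example, none of 8 anthocyanin decoration genes and none of 11 seed markers was called. Over all genes 10.7% were called, so the absence of calls in lists this short does not show these lines to be alike. Of 12 triterpene genes, a list made after its values had been seen, 6 were called lower in S2 than in S8 (6.45% of all genes were). Among the not restored genes 848 were higher and 673 lower than Col-0, and among the overshot genes 62 were higher and 19 lower. The classes are a description, since both comparisons share the Col-0 libraries, and a gene not called in S2 is not thereby shown to be at the Col-0 level. Leaving out Col-0 replicate 1 or 2 brought the not restored genes to 858 or 831 and the overshot genes to 36 or 37, leaving out Col-0 replicate 3 brought the overshot genes to 45, and leaving out *tt19-8* replicate 3 brought the not restored genes to 861.

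**Figure D1:**
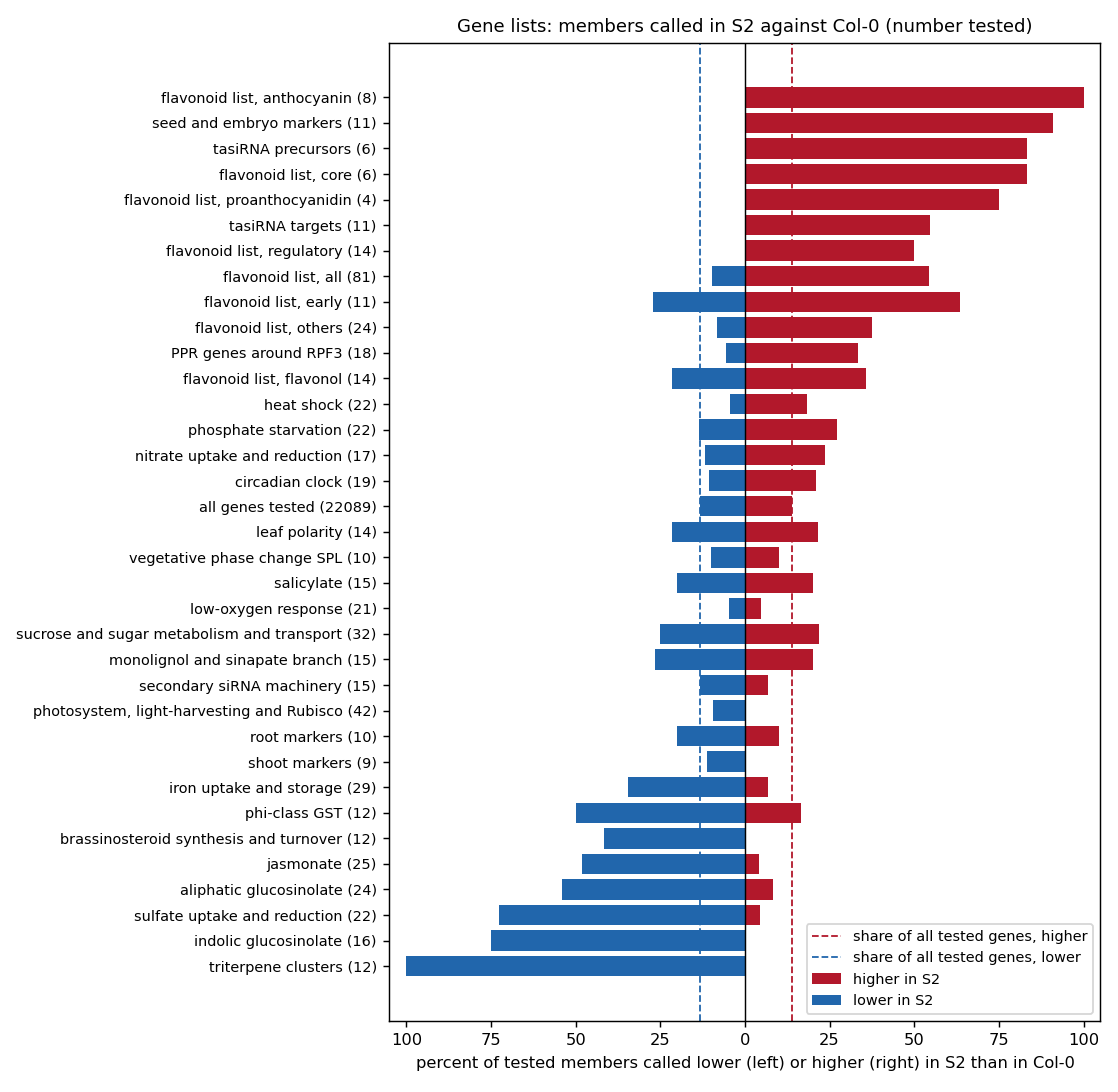
Share of the tested members of each gene list called lower (bars to the left) or higher (bars to the right) in S2 than in Col-0, in percent, with the number tested in brackets; dashed lines mark the shares over all 22089 genes, 13.3% lower and 14.0% higher. The anthocyanin, seed, core flavonoid and tasiRNA precursor lists lie furthest to the right and the triterpene, indolic glucosinolate and sulfate lists furthest to the left. The triterpene list was made after its values had been seen.

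The labels name *tt19-8* and the line, and the nonsense change in *RDR6* is given by the study. Both mutated genes were below Col-0 in S2, although *TT19* stood higher there than in *tt19-8*. *TT19* (AT5G17220) had 11.5, 9.72 and 8.28 CPM in S2, against 0.936, 1.17 and 1.54 CPM in *tt19-8* and 125, 128 and 133 CPM in Col-0. S2 lay far below Col-0 and above every *tt19-8* library, with a log2 fold change of -3.71 ± 0.21 against Col-0 (adjusted p 5.52e-10) and of 3.01 ± 0.25 against *tt19-8* (adjusted p 4.65e-08), so that *TT19* itself was among the genes not restored. *RDR6* (AT3G49500) had 19.5, 18.9 and 19.7 CPM in S2, against 32.1, 29.0 and 24.7 CPM in *tt19-8* and 29.8, 30.9 and 29.7 CPM in Col-0. The S2 libraries were below all libraries of both references, with a change of -0.64 ± 0.11 (adjusted p 0.000333). They remained above those of S8 (log2 difference S2 minus S8 0.89 ± 0.12, adjusted p 4.40e-05). Of 15 genes of the secondary siRNA machinery, which includes *RDR6*, 1 was called higher and 2 lower in S2, and none higher and 3 lower without S2 replicate 3. Over all genes 14.0% were called higher and 13.3% lower in S2.

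The flavonoid genes held the clearest overshoot. The list of 91 genes follows the study, which drew it up with these libraries at hand, so that it is not independent evidence of a direction. Of its 81 tested members 44 were called higher and 8 lower in S2 than in Col-0, with a median log2 fold change of 0.60, against 0.01 over all genes. Over all genes 14.0% were higher and 13.3% lower, and these shares also stand beside the counts of its groups below. Without S2 replicate 3, 42 were higher and 4 lower. In *tt19-8*, 11 were called higher and 16 lower against Col-0, with a median of -0.08. In the classes above, 14 members were overshot, 7 not restored and 31 called in S2 alone. The overshot members were thus 14 of the 81 such genes in the whole table.

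At the entry to the pathway, 7 of the 11 early genes were higher and 3 lower. *PAL1*, one of the genes for phenylalanine ammonia-lyase, had 1226, 1132 and 674 CPM in S2, against 590.3, 549.9 and 441 CPM in *tt19-8* and 455, 434 and 522 CPM in Col-0. Every S2 library was above all Col-0 libraries (log2 fold change 1.10 ± 0.17, adjusted p 6.67e-05), and replicate 3 was the lowest of the S2 libraries. The 4-coumarate:CoA ligase genes, which activate the hydroxycinnamic acids, split by isoform. *4CL3*, the isoform of flavonoid synthesis, had 162, 158 and 114 CPM in S2, against 32.4, 30.9 and 32.7 CPM in *tt19-8* and 32.7, 39.1 and 45.3 CPM in Col-0. It rose by 1.89 ± 0.17 against Col-0 (adjusted p 1.75e-07), with no overlap between S2 and either reference. *4CL1*, *4CL2* and *4CL5* fell, with changes of -0.60 ± 0.14, -0.65 ± 0.14 and -1.09 ± 0.18 (adjusted p 0.00402, 0.00199 and 0.000142). *ACC1*, which makes the malonyl-CoA that chalcone synthase uses, rose by 0.72 ± 0.09 (adjusted p 5.34e-06).

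Of the 6 core genes 5 were higher in S2, with a median log2 fold change of 1.80. *TT4*, chalcone synthase, had 3952, 3625 and 3035 CPM in S2, against 1038, 978 and 1225 CPM in *tt19-8* and 1068, 933 and 1141 CPM in Col-0. All 3 S2 libraries lay above the 6 others, which overlapped one another, and the change against Col-0 was 1.76 ± 0.14 (adjusted p 2.83e-08). *TT5*, chalcone isomerase, changed alike, by 1.71 ± 0.15 (adjusted p 8.84e-08). *TT7*, flavonoid 3'-hydroxylase, had 821, 781 and 582 CPM in S2, against 119, 121 and 112 CPM in *tt19-8* and 187, 189 and 207 CPM in Col-0. For this gene *tt19-8* lay below Col-0 (log2 fold change -0.73 ± 0.18, adjusted p 0.0101) and S2 above it (1.91 ± 0.18, adjusted p 3.22e-07), with no overlap among the 3 genotypes. The same order held for the late steps that commit the pathway to anthocyanin. *TT3*, dihydroflavonol reductase, had 1401, 1308 and 963 CPM in S2, against 169, 173 and 153 CPM in *tt19-8* and 296, 285 and 338 CPM in Col-0, a log2 fold change of 2.00 ± 0.15 (adjusted p 1.75e-08). *LDOX*, which makes the coloured anthocyanidin, had 709, 692 and 407 CPM in S2, against 73.4, 79.5 and 65.1 CPM in *tt19-8* and 157, 158 and 189.6 CPM in Col-0, a change of 1.84 ± 0.21 (adjusted p 2.22e-06). The sixth member, *TT6* (flavanone 3-hydroxylase), was listed at under 0.4 CPM in all 9 libraries; 94.5% of its length overlaps an annotated neighbour and it was not called, so its level cannot be read from these counts.

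All 8 tested genes of anthocyanin decoration were called higher in S2, and none of their S2 and Col-0 libraries overlapped, where 39.7% of all tested genes showed no overlap. *UGT79B1*, which adds the xylose of anthocyanin, had 428, 383 and 242 CPM in S2, against 62.3, 55.9 and 46.8 CPM in *tt19-8* and 122, 112 and 128 CPM in Col-0. S2 lay above Col-0 (change 1.54 ± 0.20, adjusted p 1.29e-05) and *tt19-8* below it (log2 fold change -1.13 ± 0.20, adjusted p 0.00106). The 5-O-glucosyltransferase gene *UGT75C1* (1.37 ± 0.18), the coumaroyltransferase genes *3AT1* (1.49 ± 0.20) and *3AT2* (1.91 ± 0.22) and the malonyltransferase gene *5MAT* (1.46 ± 0.17) were overshot in the same way, at adjusted p of 1.99e-05 or less. *UGT75C1* overlaps its neighbours over 27.1% of its length. *SAT*, the sinapoyltransferase, *UGT84A2*, which makes its sinapoyl donor, and *BGLU10*, an anthocyanin glucosyltransferase, had not been called in *tt19-8* and rose by 1.94 ± 0.17, 0.93 ± 0.11 and 0.41 ± 0.07 in S2 (adjusted p 1.28e-07, 3.04e-06 and 0.000333).

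**Figure D2:**
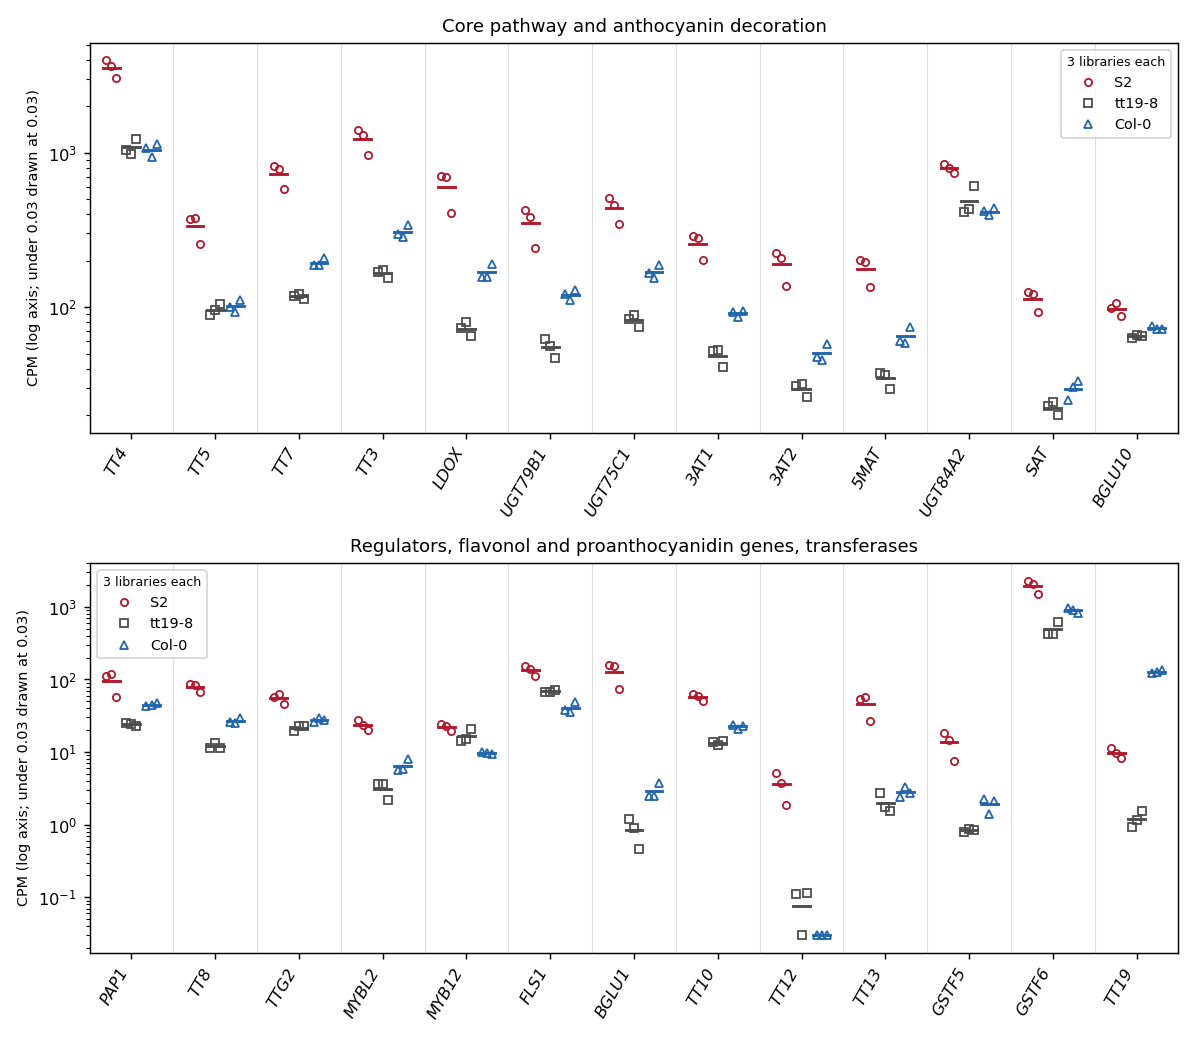
CPM on a log axis of core, decoration, regulatory and transferase genes in the 3 libraries each of S2 (circles), *tt19-8* (squares) and Col-0 (triangles), with bars at the means and values under 0.03 CPM drawn at 0.03. For *TT3* the S2 libraries sit between 963 and 1401 CPM, above Col-0 (285 to 338 CPM) and *tt19-8* (153 to 173 CPM), whereas *TT19* at the right edge of the lower panel stays below Col-0 in both mutants.

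Among the regulators 7 of 14 tested members were higher and none was lower, while 1 was lower at an unadjusted p under 0.05 and 1 in DESeq2. *PAP1* (MYB75), the MYB activator of the late genes, had 113, 118 and 58.1 CPM in S2, against 24.8, 24.6 and 22.8 CPM in *tt19-8* and 43.5, 44.4 and 47.1 CPM in Col-0. S2 replicates 1 and 2 were about alike and replicate 3 stood nearer to Col-0, yet all lay above it (log2 fold change 1.10 ± 0.20, adjusted p 0.000332). *TT8*, its bHLH partner, had 85.9, 83.5 and 67.8 CPM in S2, against 11.4, 13.3 and 11.5 CPM in *tt19-8* and 26.0, 25.2 and 29.2 CPM in Col-0, a change of 1.56 ± 0.15 (adjusted p 2.57e-07). *TTG2*, a WRKY factor downstream of that complex, rose by 0.98 ± 0.11 (adjusted p 1.83e-06). The repressor *MYBL2* was overshot together with these activators. It had 27.9, 23.6 and 19.9 CPM in S2, against 3.61, 3.66 and 2.16 CPM in *tt19-8* and 5.69, 5.77 and 7.91 CPM in Col-0 and changed by 1.88 ± 0.20 against Col-0 (adjusted p 1.07e-06). *PAP2* had 28.4, 27.0 and 24.9 CPM in S2, against 17.3, 16.5 and 22.8 CPM in Col-0, and was not called (adjusted p 0.0780), although the libraries did not overlap and DESeq2 called it (adjusted p 0.0498).

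Of 14 flavonol genes 5 were higher and 3 lower, and none was lower without S2 replicate 3. *FLS1* was not restored and lay further from Col-0 than in *tt19-8*. This gene for flavonol synthase had 155, 139 and 112 CPM in S2, against 68.0, 66.8 and 72.4 CPM in *tt19-8* and 38.0, 35.7 and 48.8 CPM in Col-0. The 3 genotypes did not overlap, and *tt19-8* was above Col-0 by 0.76 ± 0.13 (adjusted p 0.000765), and S2 above Col-0 by 1.73 ± 0.13 (adjusted p 2.02e-08) and above *tt19-8* by 0.97 ± 0.13 (adjusted p 2.69e-05). *MYB12*, which activates *FLS1*, had 24.1, 22.5 and 19.2 CPM in S2, against 14.2, 15.1 and 20.9 CPM in *tt19-8* and 10.1, 9.63 and 9.47 CPM in Col-0, a change of 1.17 ± 0.13 against Col-0 (adjusted p 2.22e-06). Both were also higher in S2 than in S8, by 0.91 ± 0.13 and 0.75 ± 0.13 (adjusted p 8.79e-05 and 0.000711), where 4.26% of genes were called higher and 6.45% lower. Of the glycosyltransferases, *UGT78D2*, which adds glucose to flavonols and anthocyanidins, rose by 1.76 ± 0.17 and *UGT78D1* by 0.51 ± 0.08 (adjusted p 4.88e-07 and 6.02e-05). *BGLU1* (AT1G45191), a glycosyl hydrolase family member, was the overshot gene with the largest rise. It had 159, 154 and 73.2 CPM in S2, against 1.18, 0.898 and 0.455 CPM in *tt19-8* and 2.50, 2.52 and 3.76 CPM in Col-0, a log2 fold change of 5.47 ± 0.40 (adjusted p 1.26e-08) against Col-0 and of 7.24 ± 0.46 against *tt19-8* (adjusted p 1.82e-09).

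Of 4 tested proanthocyanidin genes, known for their role in the seed coat, 3 were higher in the seedlings of S2. *TT12*, a vacuolar transporter of the MATE family, had 5.16, 3.73 and 1.86 CPM in S2, against 0.1102, 0 and 0.114 CPM in *tt19-8* and no count in any Col-0 library. Against a floor of 3 counts over the Col-0 libraries its level in S2 was at least 154-fold higher (adjusted p 2.22e-06). *TT13*, a proton pump of the vacuole, had 54.4, 57.1 and 26.8 CPM in S2, against 2.73, 1.73 and 1.54 CPM in *tt19-8* and 2.37, 3.32 and 2.73 CPM in Col-0, a change of 4.04 ± 0.38 (adjusted p 2.81e-07). *TT10*, a laccase, was overshot, by 1.34 ± 0.14 (adjusted p 5.91e-07). *BAN*, anthocyanidin reductase, which commits the pathway to proanthocyanidin, was not tested, with 0 CPM in the 3 S2 libraries and at most 0.195 CPM in those of Col-0. *CHIL*, a chalcone isomerase-like protein that promotes flux into the pathway, had 418, 379.9 and 189.8 CPM in S2, against 60.5, 60.5 and 63.8 CPM in *tt19-8* and 60.8, 59.5 and 77.2 CPM in Col-0 and rose by 2.32 ± 0.24 (adjusted p 6.13e-07).

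Of the 12 tested genes of the phi class, to which *TT19* belongs, 2 were higher and 6, among them *TT19*, lower in S2. Over all genes 14.0% were higher and 13.3% lower. *GSTF5* had 18.2, 14.8 and 7.64 CPM in S2, against 0.799, 0.875 and 0.854 CPM in *tt19-8* and 2.22, 1.40 and 2.12 CPM in Col-0. *GSTF6* had 2295, 2067 and 1487 CPM in S2, against 418, 427 and 625 CPM in *tt19-8* and 973, 905 and 819 CPM in Col-0. Both were overshot, with changes of 2.82 ± 0.31 and 1.12 ± 0.18 (adjusted p 1.83e-06 and 0.000113), with *tt19-8* below Col-0 at log2 fold changes of -1.18 ± 0.36 and -0.88 ± 0.18 (adjusted p 0.0326 and 0.00284). *GSTF2*, *GSTF9* and *GSTF10* fell, with changes of -0.94 ± 0.12, -0.96 ± 0.14 and -0.89 ± 0.13 (adjusted p 7.54e-06, 5.60e-05 and 3.25e-05) and had not been called in *tt19-8*. Phi-class genes lie in tandem and share sequence, and an annotated gene on the other strand covers 85.3% of *GSTF2*, so that shared reads could have moved counts between neighbours.

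Most tasiRNA precursors and 6 of 11 target genes were higher than in Col-0. Of the 6 tested precursors 5 were called higher in S2 (14.0% of all genes were) and none lower (13.3%). The count lower was also 0 at an unadjusted p under 0.05 and in DESeq2. In *tt19-8* none of the 6 had been called, with 1 higher and 1 lower at an unadjusted p under 0.05 and 1 lower in DESeq2. *TAS4* had 56.4, 59.7 and 35.0 CPM in S2, against 7.16, 6.08 and 5.97 CPM in *tt19-8* and 8.29, 10.8 and 9.42 CPM in Col-0. The S2 libraries lay above all 6 others, replicate 3 the lowest, with a change of 2.41 ± 0.20 against Col-0 (adjusted p 5.78e-08) and of 2.98 ± 0.21 against *tt19-8* (adjusted p 6.06e-09). *TAS2* had 29.4, 32.6 and 28.3 CPM in S2, against 17.4, 16.1 and 15.9 CPM in *tt19-8* and 15.1, 18.6 and 13.6 CPM in Col-0, a change of 0.93 ± 0.14 (adjusted p 4.61e-05). *TAS1C* and *TAS3* rose by 0.95 ± 0.24 and 0.72 ± 0.16 (adjusted p 0.00526 and 0.00254). Of these 5, *TAS1A* had the smallest change, 0.37 ± 0.13 (adjusted p 0.0400), a call that 10 of the 20 alternatives did not make. *TAS1B* was not called (adjusted p 0.599).

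None of the 11 target genes was lower in S2 (13.3% of all genes were), with a median of 0.87. At an unadjusted p under 0.05, 1 was lower, and 1 in DESeq2. *ARF4*, whose window in *TAS3* is given above, had 102, 107 and 109 CPM in S2, against 47.6, 49.0 and 48.1 CPM in *tt19-8* and 54.7, 60.4 and 58.5 CPM in Col-0. The genotypes did not overlap, *tt19-8* lying below Col-0 (log2 fold change -0.26 ± 0.08, adjusted p 0.0234) and S2 above it (change 0.87 ± 0.07, adjusted p 7.68e-08). *ARF3*, with the same window, had 20.4, 19.6 and 13.9 CPM in S2, against 14.1, 12.6 and 14.6 CPM in Col-0. Here replicate 3 fell within the Col-0 range, and the call (0.38 ± 0.12, adjusted p 0.0226) was lost under 6 of the 20 alternatives. *ARF2* was not called (adjusted p 0.533).

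Among the called targets *HTT1* and AT4G29760 had the largest changes, whereas *HTT3* and *HTT5* were not called (adjusted p 0.598 and 0.165). *HTT1*, a heat-induced target of *TAS1* siRNAs, had 3.66, 4.57 and 8.86 CPM in S2, against 0.413, 0.599 and 0.541 CPM in *tt19-8* and 0.336, 0.280 and 0.0732 CPM in Col-0. It rose by 4.59 ± 0.38 (adjusted p 5.16e-08), without overlap. Its neighbour AT4G29760, annotated as a target of the same siRNAs, had 2.04, 2.91 and 3.84 CPM in S2, against 0.248, 0.138 and 0.142 CPM in *tt19-8* and 0.273, 0.129 and 0 CPM in Col-0 and rose by 4.38 ± 0.45 (adjusted p 7.37e-07), though reads shared by this pair cannot be told apart. *HTT2* had 36.0, 34.7 and 38.0 CPM in S2, against 14.0, 13.5 and 13.9 CPM in *tt19-8* and 15.6, 16.9 and 13.0 CPM in Col-0, a change of 1.25 ± 0.17 (adjusted p 1.26e-05). *RPF3*, a PPR gene that acts in mitochondrial RNA processing, had 10.9, 11.7 and 12.4 CPM in S2, against 7.49, 6.86 and 6.69 CPM in *tt19-8* and 5.67, 6.998 and 4.66 CPM in Col-0 and rose by 1.01 ± 0.14 (adjusted p 1.60e-05). Of the 18 tested PPR genes around it 6 were higher and 1 lower, *RPF3* included (5 and none without S2 replicate 3), and these near copies may share reads. Over all genes 14.0% were higher and 13.3% lower. The largest change among them was in AT1G63150, with 6.01, 6.28 and 10.2 CPM in S2, against 3.44, 3.59 and 5.49 CPM in *tt19-8* and 4.24, 2.82 and 2.71 CPM in Col-0 (change 1.21 ± 0.23, adjusted p 0.000530).

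**Figure D3:**
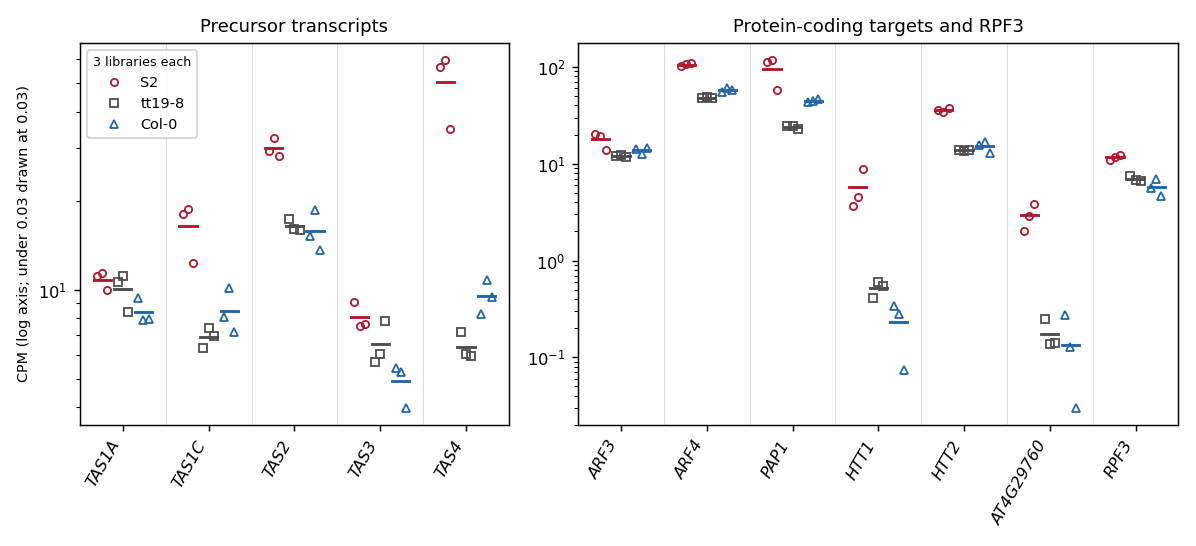
CPM on log axes of tasiRNA precursors (left) and of target genes and *RPF3* (right) in the 3 libraries each of S2, *tt19-8* and Col-0, with bars at the means and values under 0.03 CPM drawn at 0.03. *TAS4* stands at 35.0 to 59.7 CPM in S2, against 8.29 to 10.8 CPM in Col-0, and *ARF4* at 102 to 109 CPM, against 54.7 to 60.4 CPM.

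Seed storage genes stayed displaced. Of 11 tested seed and embryo markers 10 were higher in S2 than in Col-0 (14.0% of all genes were), with a median log2 fold change of 3.75 (2.93 without S2 replicate 3). Of these, 9 were not restored (6.89% of all genes), having been higher in *tt19-8* too. The summed level of the list was 1752, 1788 and 6269 CPM in S2, against 1791, 1685 and 1540 CPM in *tt19-8* and 248, 255 and 334 CPM in Col-0. The 2 mutants overlapped in replicates 1 and 2, and S2 replicate 3 stood far above. *CRA1*, a cruciferin storage protein gene, had 629, 653 and 2494 CPM in S2, against 534, 487 and 492 CPM in *tt19-8* and 27.1, 29.0 and 52.5 CPM in Col-0, a change of 5.12 ± 0.44 against Col-0 (adjusted p 8.84e-08). *CRC*, another cruciferin gene, had 495, 496 and 2141 CPM in S2, against 479, 424 and 421 CPM in *tt19-8* and 13.4, 19.8 and 46.7 CPM in Col-0, a change of 5.29 ± 0.56 (adjusted p 9.05e-07). Both mutants lay above Col-0 in all libraries. *CRB* changed by 4.27 ± 0.60, the albumin genes *SESA1* and *SESA2* by 3.75 ± 0.43 and 3.89 ± 0.38, and *OLEO1*, an oil body protein gene, by 3.42 ± 0.50 (adjusted p 2.49e-05, 2.89e-06, 4.70e-07 and 4.00e-05). *ABI3*, the seed transcription factor, had 34.5, 34.6 and 99.3 CPM in S2, against 44.4, 53.4 and 53.8 CPM in *tt19-8* and 22.9, 22.9 and 19.0 CPM in Col-0, a change of 1.38 ± 0.29 (adjusted p 0.00151). Without replicate 3 of S2, *tt19-8* and Col-0 together its change was 0.59 and not called (adjusted p 0.0558). Without S2 replicate 3, 9 members were called, the call of *OLEO2* being lost (adjusted p 0.0508, against 0.00339 with it). Of the other factors of embryo identity on the list, *FUS3* was not called (adjusted p 0.817) and *LEC1*, at or under 0.231 CPM in all 9 libraries, was not tested.

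**Figure D4:**
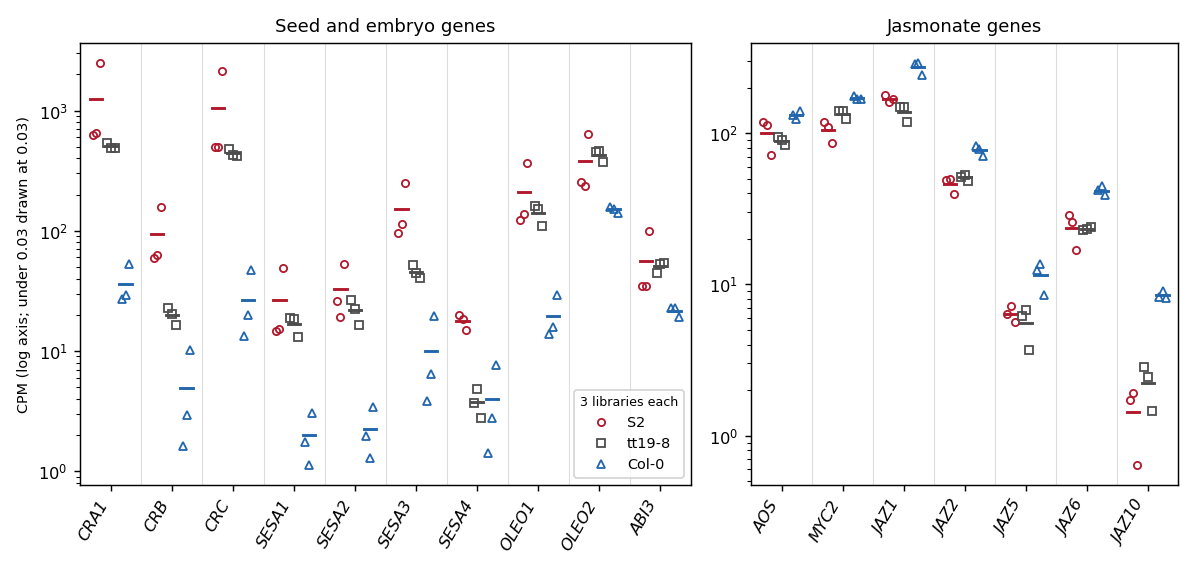
CPM on log axes of seed and embryo genes (left) and jasmonate genes (right) in the 3 libraries each of S2, *tt19-8* and Col-0, with bars at the means. *CRA1* sits at 629 to 2494 CPM in S2 and 487 to 534 CPM in *tt19-8*, against 27.1 to 52.5 CPM in Col-0, while the jasmonate genes plotted lie below Col-0 in both mutants.

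Many jasmonate genes were low in both S2 and *tt19-8*. Of 25 tested members 12 were lower and 1 higher in S2 (13.3% and 14.0% of all genes were), with a median of -0.39. In *tt19-8* 12 were lower and none higher (6.50% and 7.13% of all genes were). None was higher there at an unadjusted p under 0.05 or in DESeq2 either. Of the S2 calls 7 were not restored and 6 made in S2 alone, and without S2 replicate 3 the count lower was 9. Set against S8, 11 were lower in S2 and none higher (6.45% and 4.26% of all genes were). None was higher at an unadjusted p under 0.05 either. The summed level of the list was 1444, 1405 and 1349 CPM in S8 and 1107, 1073 and 989 CPM in S2. It was 1082, 1059 and 947 CPM in *tt19-8* and 1392, 1392 and 1375 CPM in Col-0. *JAZ10*, a repressor that jasmonate itself induces, had 1.71, 1.92 and 0.637 CPM in S2, against 2.84, 2.44 and 1.45 CPM in *tt19-8* and 8.21, 8.98 and 8.15 CPM in Col-0. All mutant libraries were below Col-0, with a change of -2.58 ± 0.32 in S2 (adjusted p 7.11e-06) and of -1.91 ± 0.31 in *tt19-8* (adjusted p 0.000522). *JAZ2* had 48.9, 49.9 and 39.8 CPM in S2, against 51.6, 52.9 and 48.5 CPM in *tt19-8* and 81.9, 78.1 and 70.7 CPM in Col-0, a change of -0.74 ± 0.08 (adjusted p 2.08e-06). *JAZ1* and *JAZ6* were lower, with changes of -0.70 ± 0.14 and -0.82 ± 0.15 (adjusted p 0.00115 and 0.000345). *MYC2*, the main activator, was lower too (change -0.71 ± 0.09, adjusted p 6.68e-06), though a gene on the other strand covers 98.5% of it. The vegetative storage protein genes *VSP1* and *VSP2*, common readouts of the pathway, fell in S2 without having been called in *tt19-8*. *VSP2* had 1.85, 2.27 and 0.424 CPM in S2, against 10.8, 7.07 and 3.87 CPM in *tt19-8* and 9.36, 10.1 and 15.3 CPM in Col-0, a change of -2.95 ± 0.41 (adjusted p 2.47e-05), and *VSP1* had one of -4.12 ± 0.61 (adjusted p 4.70e-05). *AOC2*, an allene oxide cyclase gene of jasmonate synthesis, was the member called higher (1.49 ± 0.33, adjusted p 0.00217).

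Outside these lists, the not restored genes with the largest rise were, after *CRC* and *CRA1*, AT4G18690, annotated as a delay of germination protein, AT1G17010, a 2-oxoglutarate-dependent oxygenase, and AT2G05580, a glycine-rich protein. AT2G05580 had 30.7, 47.8 and 157 CPM in S2, against 48.6, 43.6 and 34.7 CPM in *tt19-8* and 2.88, 2.52 and 5.34 CPM in Col-0, a change of 4.47 ± 0.63 (adjusted p 2.65e-05). AT4G18690 and AT1G17010 changed by 5.04 ± 0.80 and 4.73 ± 0.65 (adjusted p 0.000107 and 2.03e-05). In all 3 the highest S2 value was that of replicate 3. The largest falls ended near 0. *CYP710A4*, a cytochrome P450 of the family that makes stigmasterol, had no count in any S2 library, against 1.02, 0.483 and 0.228 CPM in *tt19-8* and 2.73, 2.67 and 3.15 CPM in Col-0, so that Col-0 was at least 141-fold higher against a floor of 3 counts over the S2 libraries (adjusted p 5.02e-06). AT2G25150, an acyltransferase gene, had 1 count in all over the S2 libraries, and its level in Col-0 was 367 times that (95% counting interval 65.4 to 14536). AT5G44440, a berberine bridge enzyme-like gene, had 2 counts over S2, with a ratio of Col-0 over S2 of 182 (49.9 to 1508). *AT14A*, AT4G10510 (a subtilase) and AT5G49770 (a receptor-like kinase) fell, with changes of -6.27 ± 0.88, -5.48 ± 0.61 and -5.21 ± 0.63 (adjusted p 4.22e-05, 1.88e-06 and 4.42e-06). AT4G10510 had 0.211, 0.0599 and 0.177 CPM in S2, against 1.02, 1.96 and 0.797 CPM in *tt19-8* and 7.03, 9.17 and 3.93 CPM in Col-0, the 3 genotypes not overlapping.

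Of the 19 overshot genes that went below Col-0, the 6 with the largest fall were led by an iron regulator. *BHLH38*, a bHLH factor of the iron response, had 2.21, 2.08 and 1.43 CPM in S2, against 15.1, 16.5 and 11.5 CPM in *tt19-8* and 8.23, 7.39 and 9.13 CPM in Col-0. It lay above Col-0 in *tt19-8* (log2 fold change 0.80 ± 0.23, adjusted p 0.0249) and below it in S2 (change -2.12 ± 0.26, adjusted p 4.89e-06), and 31.9% of it overlaps a gene on the other strand. AT5G24240, a phosphatidylinositol kinase-like gene, had 0.728, 0.579 and 1.26 CPM in S2, against 12.6, 11.9 and 10.3 CPM in *tt19-8* and 1.93, 2.17 and 2.46 CPM in Col-0, a change of -1.34 ± 0.36 (adjusted p 0.00813). AT1G76240 and AT5G19120, an aspartyl protease gene, were lower, with changes of -0.72 ± 0.19 and -0.61 ± 0.10 (adjusted p 0.00722 and 9.73e-05), and AT1G76240 was not called without replicate 3 of S2, *tt19-8* and Col-0 together (adjusted p 0.0739). *LTP4*, a lipid transfer protein gene, and the pseudogene AT2G29010 were lower, with changes of -0.57 ± 0.20 and -0.55 ± 0.21 (adjusted p 0.0363 and 0.0494), calls that 8 and 13 of the 20 alternatives did not make, among them that without S2 replicate 3 (adjusted p 0.153 and 0.178).

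Among the genes called in S2 alone were those of a triterpene list. This list was made after the values had been seen, because *CYP705A5*, AT5G47980 and *MRN1* were among the 10 largest falls. It gets no test of its own. Its counts below rest on the same S2 libraries that prompted it, so they describe the list and are no evidence of a shared change. Most members belong to 3 gene clusters, active mainly in roots, that make thalianol, marneral and arabidiol from a common precursor of the sterols. The others are *PEN3*, annotated as a putative pentacyclic triterpene synthase, and AT5G36180, annotated as a serine carboxypeptidase-like gene, which lie apart from those clusters. All 12 members were called lower in S2 than in Col-0, with a median of -3.55, and 10 were called lower than in *tt19-8* (11 with a replicate block), where 9.60% of all genes were. In *tt19-8* none was called against Col-0, with 2 lower at an unadjusted p under 0.05 and 0 called in DESeq2. Without S2 replicate 3, the count was 11. Their summed level was 117, 115 and 52.9 CPM in S2, against 823, 815 and 337 CPM in *tt19-8* and 799.8, 819 and 917 CPM in Col-0. S2 was below the other genotypes in every library, and replicate 3 was lowest in both S2 and *tt19-8*. *THAS1*, thalianol synthase, had 13.0, 11.6 and 4.32 CPM in S2, against 174, 165 and 63.2 CPM in *tt19-8* and 182, 191 and 208 CPM in Col-0, a change of -4.33 ± 0.35 (adjusted p 3.89e-08). *CYP708A2*, thalianol hydroxylase, had 4.60, 3.23 and 0.336 CPM in S2, against 125, 126 and 38.8 CPM in *tt19-8* and 120.1, 117 and 130.4 CPM in Col-0, a change of -5.53 ± 0.53 (adjusted p 3.22e-07). *CYP705A5*, which acts after it, had 3.52, 3.09 and 0.354 CPM in S2, against 284, 285 and 102 CPM in *tt19-8* and 253, 261 and 317 CPM in Col-0, a change of -6.94 ± 0.51 (adjusted p 1.26e-08). None of the 3 overlapped with a reference. AT5G47980 and AT5G47950, acyltransferases annotated beside them, had changes of -7.09 ± 0.59 and -2.32 ± 0.25 (adjusted p 4.67e-08 and 1.03e-06).

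*MRN1*, marneral synthase, had 1 count over the 3 S2 libraries, against 15.6, 16.0 and 0.427 CPM in *tt19-8* and 3.50, 2.67 and 11.4 CPM in Col-0. The Col-0 level was 838 times that of S2 (95% counting interval 149.9 to 33132), and Col-0 replicate 3 and *tt19-8* replicate 3 each differed several-fold from their fellows, in opposite directions. Its cluster partners *CYP71A16* and *CYP705A12* fell, with changes of -2.65 ± 0.30 and -2.76 ± 0.39 (adjusted p 2.31e-06 and 3.10e-05). *PEN1*, arabidiol synthase, and *CYP705A1* beside it had the smallest changes, -0.80 ± 0.23 and -0.52 ± 0.16 (adjusted p 0.0144 and 0.0189). The call of *CYP705A1* was lost without S2 replicate 3 (adjusted p 0.107). Of 10 root markers 1 was higher and 2 were lower (14.0% and 13.3% of all genes were), with a median of -0.05. Without S2 replicate 3 none was higher and 1 was lower, with a median of 0.21, and their summed level is given above.

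Sulfate uptake and reduction genes were lower in S2. Of 22 tested members 16 were lower and 1 higher (13.3% and 14.0% of all genes were), with a median of -0.80. Of these calls 6 were not restored (6.89% of all genes) and 11 were made in S2 alone. Set against S8, 11 members were lower in S2 and 1 higher (6.45% and 4.26% of all genes were). *SULTR1;2*, the main sulfate importer of the root, had 99.8, 101 and 129 CPM in S2, against 222, 218 and 178 CPM in *tt19-8* and 222, 232 and 239.6 CPM in Col-0. S2 lay below both references, which overlapped each other, with a change of -1.07 ± 0.09 (adjusted p 8.68e-08). *SULTR2;1*, which moves sulfate within the plant, had 20.3, 20.8 and 6.07 CPM in S2, against 103, 98.1 and 39.5 CPM in *tt19-8* and 103, 104 and 169 CPM in Col-0, a change of -3.00 ± 0.36 (adjusted p 5.04e-06). *APR1*, whose enzyme reduces activated sulfate, had 40.3, 38.3 and 19.3 CPM in S2, against 93.0, 87.8 and 62.6 CPM in *tt19-8* and 134, 135 and 128 CPM in Col-0. It was lower in *tt19-8* (log2 fold change -0.71 ± 0.19, adjusted p 0.0156) and lower still in S2 (change -2.02 ± 0.19, adjusted p 3.22e-07). *APR3* and *APK2*, which makes the sulfate donor of glucosinolates, fell too, with changes of -0.91 ± 0.09 and -1.39 ± 0.24 (adjusted p 5.70e-07 and 0.000228). The sulfur-limitation markers *LSU1* and *LSU2* were lower too, with changes of -2.17 ± 0.37 and -2.38 ± 0.25 (adjusted p 0.000211 and 7.37e-07). *APS2*, an ATP sulfurylase gene, was the member called higher (0.31 ± 0.06, adjusted p 0.00120).

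**Figure D5:**
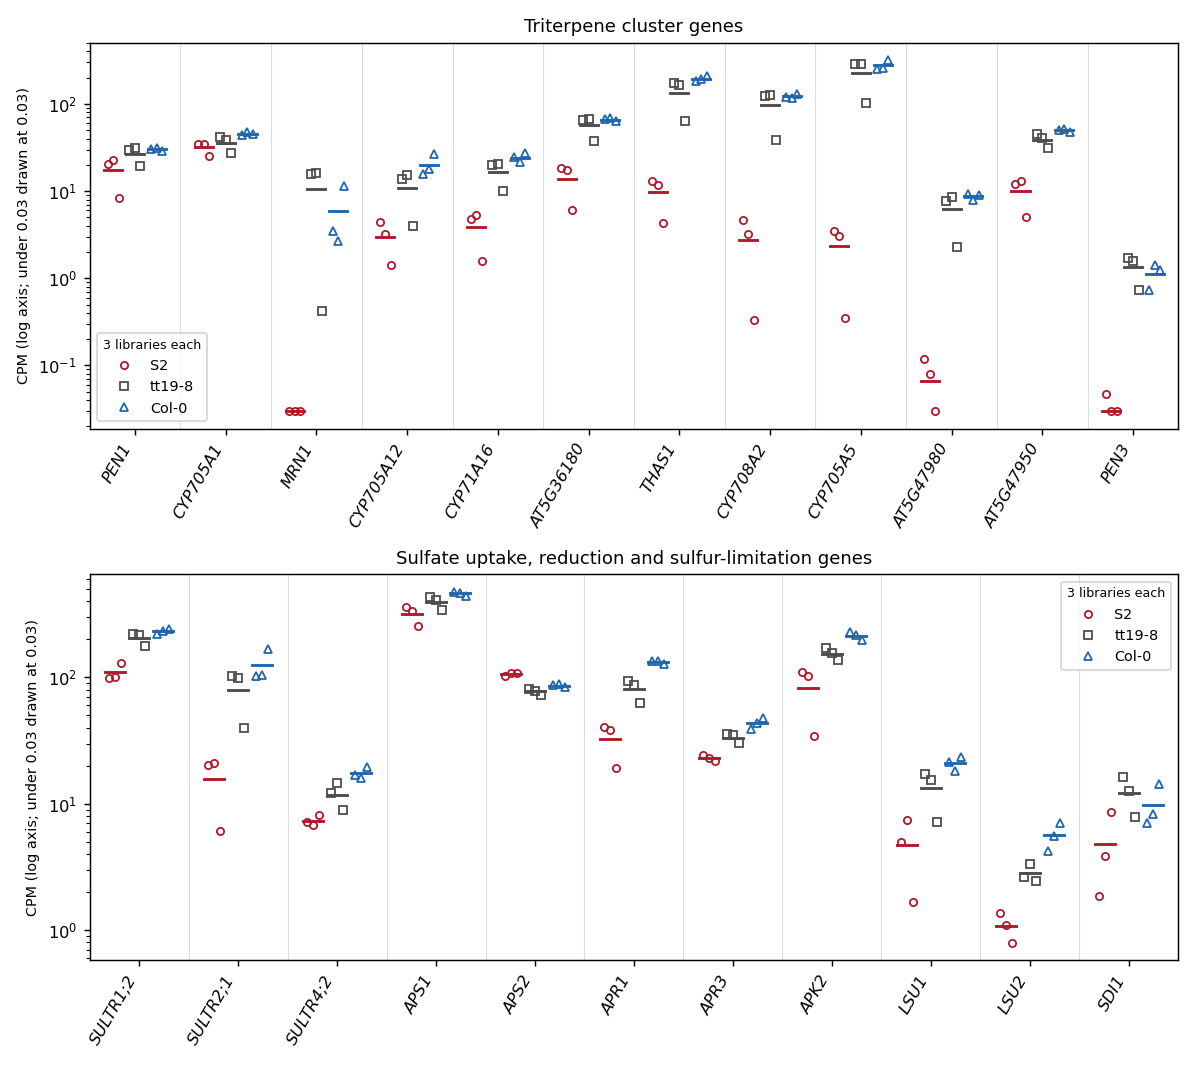
CPM on log axes of triterpene cluster genes (top) and of sulfate and sulfur-limitation genes (bottom) in the 3 libraries each of S2, *tt19-8* and Col-0, with bars at the means and values under 0.03 CPM drawn at 0.03. *CYP705A5* lies at 0.354 to 3.52 CPM in S2, against 102 to 285 CPM in *tt19-8* and 253 to 317 CPM in Col-0.

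Glucosinolates, the sulfur-rich defence compounds of the family, draw on this route for activated sulfate. Of 16 indolic glucosinolate genes 12 were lower in S2 and none higher (13.3% and 14.0% of all genes were), with a median of -0.71. The count higher was also 0 at an unadjusted p under 0.05 and in DESeq2. All 12 were called in S2 alone and lower than in *tt19-8* as well. Set against S8, 7 of the 16 were lower in S2 and none higher (6.45% and 4.26% of all genes were). At an unadjusted p under 0.05, 1 was higher than in S8. In *tt19-8* 2 were higher than in Col-0 and none lower, with 2 lower at an unadjusted p under 0.05 and 1 in DESeq2. *CYP83B1*, which acts on the indolic oxime, had 388, 373 and 256 CPM in S2, against 570.1, 561 and 464 CPM in *tt19-8* and 607, 565 and 614 CPM in Col-0, a change of -0.81 ± 0.13 (adjusted p 7.98e-05). *CYP79B2* and *CYP79B3*, which make that oxime from tryptophan, fell, with changes of -0.80 ± 0.13 and -1.30 ± 0.28 (adjusted p 0.000188 and 0.00170). *CYP81F4*, which modifies the indole ring, had 8.47, 8.34 and 3.52 CPM in S2, against 42.0, 38.4 and 18.7 CPM in *tt19-8* and 29.8, 33.7 and 34.0 CPM in Col-0, a change of -2.27 ± 0.30 (adjusted p 1.14e-05), but an annotated gene on the other strand covers 99.6% of it. Of 24 aliphatic members 13 were lower and 2 higher, with a median of -0.87, and without S2 replicate 3 the median was -0.46, with 11 lower and 3 higher. The fit of the 6 libraries alone called 2 in all. *MYB28*, the activator of that branch, had 17.0, 19.4 and 4.49 CPM in S2, against 22.0, 20.99 and 20.4 CPM in *tt19-8* and 31.0, 37.1 and 28.5 CPM in Col-0, a change of -1.25 ± 0.30 (adjusted p 0.00415). S2 replicate 3 was far below the other S2 libraries here, yet the call held without it (adjusted p 0.00185), whereas the fits of fewer genotypes did not make it. *BAT5*, a plastid transporter of the branch, fell (change -1.64 ± 0.40, adjusted p 0.00417), as did *GSTU20* (-0.94 ± 0.20, adjusted p 0.00167), which was not restored. *FMOGS-OX2*, an S-oxygenase gene, rose by 0.85 ± 0.17 (adjusted p 0.00106).

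Of 29 tested iron genes 10 were lower and 2 higher in S2 than in Col-0, against 13.3% and 14.0% of all genes, and 15 were lower than in *tt19-8*, where 9.60% of genes were lower (9.49% higher). *IRT1*, the iron importer of the root, had 0.282, 0.180 and 0.195 CPM in S2, against 16.3, 18.5 and 1.85 CPM in *tt19-8* and 4.05, 5.12 and 8.69 CPM in Col-0. All S2 libraries were below the references, with a change of -4.77 ± 0.68 (adjusted p 3.10e-05), whereas *tt19-8* spanned the Col-0 range. *BHLH39* and *BHLH100*, factors of the same response as *BHLH38*, fell, with changes of -1.50 ± 0.32 and -2.98 ± 0.37 (adjusted p 0.00156 and 6.72e-06). *FRO2*, the ferric reductase that works beside IRT1, was one of the 2 called higher. It had 42.0, 41.0 and 54.2 CPM in S2, against 32.1, 27.1 and 32.2 CPM in *tt19-8* and 22.2, 20.9 and 22.0 CPM in Col-0 and was higher by 1.08 ± 0.11 (adjusted p 5.14e-07), and *tt19-8* was higher than Col-0 as well (log2 fold change 0.49 ± 0.11, adjusted p 0.00512). Of 22 phosphate starvation genes 11 were higher in *tt19-8*, where 7.13% of all genes were. In S2 6 were higher and 3 lower, against 14.0% and 13.3% of all genes, so the count lower was near that share. *PAP17*, an acid phosphatase gene, stayed high, with 99.8, 104 and 108 CPM in S2, against 94.4, 90.8 and 83.0 CPM in *tt19-8* and 56.3, 54.0 and 55.4 CPM in Col-0, a change of 0.91 ± 0.13 (adjusted p 2.51e-05). *PHT1;1*, a phosphate importer, stayed low, with 20.3, 19.0 and 17.1 CPM in S2, against 38.2, 33.3 and 30.8 CPM in *tt19-8* and 58.4, 60.3 and 49.7 CPM in Col-0, a change of -1.58 ± 0.17 (adjusted p 1.35e-06).

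The remaining large changes were in genes of no list. AT1G56100, annotated as an invertase or pectin methylesterase inhibitor, had 75.0, 62.9 and 19.1 CPM in S2, against 0, 0.0230 and 0 CPM in *tt19-8* and 0.0210, 0 and 0.0244 CPM in Col-0. Only 2 counts fell on it over the Col-0 libraries, and the S2 level was 3361 times that (95% counting interval 930 to 27754). *scpl39*, a serine carboxypeptidase-like gene, had 10.96, 9.40 and 3.15 CPM in S2 and no count in any *tt19-8* or Col-0 library, so that S2 was at least 337-fold higher than Col-0 (adjusted p 1.10e-06). AT5G55320, an acyltransferase gene, had 6.69, 7.72 and 3.11 CPM in S2 and 2 counts over Col-0, a ratio of S2 over Col-0 of 384 (106 to 3173). AT3G49270, an extensin-like gene, had 89.5, 79.5 and 19.9 CPM in S2, against 0.331, 0 and 0.0285 CPM in *tt19-8* and 0.357, 0.345 and 0.244 CPM in Col-0, a change of 7.62 ± 0.68 (adjusted p 1.29e-07). AT3G01345, an uncharacterized gene, had 158, 163 and 7.50 CPM in S2, against 0.496, 0.852 and 0.285 CPM in *tt19-8* and 0.357, 0.280 and 0.146 CPM in Col-0 (change 8.67 ± 1.04, adjusted p 4.38e-06), replicate 3 standing far below its fellows. In each of these, every S2 library was above every library of the references, and replicate 3 was the lowest of S2.

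Of the largest falls, AT2G16005 and *AIR1* had no count in S2. AT2G16005, a lipid recognition domain gene, had 2.97, 2.65 and 0.256 CPM in *tt19-8* and 1.87, 2.50 and 4.86 CPM in Col-0, and Col-0 was at least 149-fold higher (adjusted p 1.51e-05). For *AIR1*, an auxin-induced root gene, Col-0 was at least 103-fold higher (adjusted p 3.08e-06), though 92.9% of it overlaps a gene on the other strand. *GolS4*, a galactinol synthase gene, had 2 counts over S2, and its level in Col-0 was 348 times that (95% counting interval 95.97 to 2881). *GRP9*, a glycine-rich protein gene, had 0.915, 0.459 and 0.0884 CPM in S2, against 40.3, 34.7 and 2.93 CPM in *tt19-8* and 25.4, 30.4 and 61.3 CPM in Col-0, a change of -6.40 ± 0.76 (adjusted p 3.70e-06). For *GolS4* and *GRP9* replicate 3 was the highest of Col-0 and the lowest of *tt19-8*.

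Of 42 photosystem, light-harvesting and Rubisco genes none was higher and 4 were lower. Over all genes 14.0% were higher and 13.3% lower, which also stands beside the counts of the lists that follow. The count higher was 1 at an unadjusted p under 0.05, 0 in DESeq2 and 2 without S2 replicate 3, where 2 were lower. Of 22 heat-shock genes 4 were higher and 1 lower, of 19 clock genes 4 and 2, of 17 nitrate genes 4 and 2, and of 15 monolignol and sinapate genes 3 and 4. Of 32 sugar genes 7 were higher and 8 lower, and of 21 low-oxygen genes and of 10 SPL genes of the phase change 1 was higher and 1 lower each. Without S2 replicate 3, 5 sugar genes were higher and 4 lower, 4 nitrate genes were higher and 1 lower, 1 monolignol and sinapate gene was higher and 3 were lower, 1 low-oxygen gene was lower and none higher, and no SPL gene was called. Of 9 tested shoot markers 1 was lower and none higher, as at an unadjusted p under 0.05 and in DESeq2, but 2 were higher without S2 replicate 3. Of the 24 flavonoid genes outside the groups above, 9 were higher and 2 lower (8 and 1 without S2 replicate 3). Of 15 salicylate genes 3 were higher and 3 lower, where 14.0% and 13.3% of all genes were. *WRKY70*, a factor of the salicylate response, rose by 2.13 ± 0.32, and *PBS3*, which conjugates the salicylate precursor, by 2.17 ± 0.44 (adjusted p 6.28e-05 and 0.00106). *EDS5*, the plastid exporter of that precursor, had 12.5, 13.2 and 10.8 CPM in S2, against 26.3, 27.5 and 24.0 CPM in *tt19-8* and 29.7, 30.6 and 32.0 CPM in Col-0, a change of -1.34 ± 0.09 (adjusted p 5.83e-09). Of 12 brassinosteroid genes 5 were lower and none higher (none also at an unadjusted p under 0.05 and in DESeq2), but without S2 replicate 3 the count lower was 2. Of 14 leaf polarity genes 3 were higher, 3 lower and 8 not called (14.0% of all genes were higher and 13.3% lower). In *tt19-8* 4 were lower and none higher (6.50% and 7.13% of all genes were). Not restored were 2 of the S2 calls, both among the lower ones, so *PHB*, *REV* or both had been called lower in *tt19-8* too. *YAB2*, a YABBY factor of the lower leaf side, rose by 0.93 ± 0.18, and *PHB* and *REV* of the upper side fell, with changes of -0.31 ± 0.06 and -0.47 ± 0.09 (adjusted p 0.000633, 0.00125 and 0.000829). The other called members are not named, and a shift of either leaf side was not tested.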

How the data were processed

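RNA-seq was made from whole seedlings of 8 genotypes, with 3 libraries each. Per the labels and the study's methods, the authors checked the reads with FastQC (version 0.11.5), aligned them to TAIR10 with HISAT2 and assigned them to genes with FeatureCounts. The deposited files hold raw counts for 33331 genes, not normalized. The strand and multimapping settings are not given in the sources used here, so reads of a gene and of its antisense or near-identical neighbour cannot be told apart. Whether the replicates are separate cultures is not stated either, and p-values then measure the spread between these libraries, which may be technical.

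The counts were filtered with filterByExpr, which left 22089 genes, scaled by TMM and tested with edgeR's quasi-likelihood F test, two-sided (edgeR 4.0.16, limma 3.58.1, R 4.3.3), over all 24 libraries with 1 mean per genotype and Benjamini-Hochberg adjustment. The study tested with DESeq2, which was run here as an alternative (1.42.0). Gene names came from RefSeq (TAIR10.1), which matched 28932 IDs, and from the lists. Fold bounds for a group at 0 use a floor of 3 counts over the group. Ratios on 1 to 3 counts have exact 95% binomial counting intervals, and both cover counting error only. No count row lacked a gene, and no 2 libraries were identical.

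The members and lists were chosen with earlier results of these data known, and the triterpene list after its values had been seen. Genes are named where they are list members of known role or of large change, where they are among the 10 largest rises or falls in S2 against Col-0 (called, without overlap, averaging at least 1 CPM in the 6 libraries), or where they are among the 6 largest in each direction of the not restored and overshot classes. The test was checked on simulated data for S2 against Col-0, drawn for 21798 genes with 50 genes changed at each fold, and recovered 98.0% of the changes at 4-fold and 78.0% at 2-fold up, and 98.0% at 4-fold and 90.0% at 2-fold down, with 13 false calls, 6.67% of all calls. The simulated libraries were drawn independently, without a replicate that stood apart as replicate 3 did. These rates therefore need not hold for the libraries here. Replicate numbers were taken to pair libraries where all same-numbered libraries of 2 genotypes deviated together from their group means (correlations over 0.1). They did so for S2 and *tt19-8* (0.12, 0.10 and 0.23), which the labels do not tie together. However, S2 replicate 1 also deviated with *tt19-8* replicate 2 (0.07), and S2 replicate 2 with *tt19-8* replicate 1 (0.11). The numbers 1 and 2 thus did not pair these libraries. A replicate block raised the triterpene genes called lower between S2 and *tt19-8* to 11, against 10, and changed no other printed call between them. The alternatives were other scalings, filters, tests, sets of libraries, a replicate block, a stricter threshold and leaving out each library; S8 replicate 3 was left out after seeing the data.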

Additional observations from a re-analysis of the deposited data

Results flagged for a closer look

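S2 and S8 share the *tt19-8* background and a nonsense change in *RDR6*. In 11 of the 136 named genes the test of the difference itself (edgeR's quasi-likelihood F test, Benjamini-Hochberg adjusted) called a difference of at least 4-fold. Over all genes 10.7% were called whatever their fold, and the share at 4-fold was not counted. Of the 11, S2 was higher in 1 and lower in 10, and most had been named for a large change in S2.

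Of the triterpene genes, *CYP705A5* had 3.52, 3.09 and 0.354 CPM in S2, against 166, 140 and 72.2 CPM in S8 (adjusted p 2.87e-07). *THAS1* had 13.0, 11.6 and 4.32 CPM in S2, against 117, 115 and 78.4 CPM in S8 (adjusted p 1.52e-06). *CYP708A2* had 4.60, 3.23 and 0.336 CPM in S2, against 30.7, 31.9 and 14.0 CPM in S8 (adjusted p 0.000190). The acyltransferase gene AT5G47980 had 0.117, 0.0798 and 0 CPM in S2, against 3.31, 2.74 and 1.14 CPM in S8 (adjusted p 1.80e-05). In all 4 the S8 libraries lay above those of S2 and below those of Col-0.

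The uncharacterized gene AT3G01345 was the one that was higher in S2, with 158, 163 and 7.50 CPM in S2, against 2.71, 2.00 and 2.33 CPM in S8 (adjusted p 0.000171). The jasmonate-induced repressor gene *JAZ10* had 1.71, 1.92 and 0.637 CPM in S2, against 5.62, 6.59 and 4.98 CPM in S8 (adjusted p 0.000279). The subtilase gene AT4G10510 had 0.211, 0.0599 and 0.177 CPM in S2, against 0.971, 0.925 and 1.04 CPM in S8 (adjusted p 0.00733). The receptor-like kinase gene AT5G49770 had 0.0235, 0.120 and 0.141 CPM in S2, against 0.669, 0.231 and 0.410 CPM in S8 (adjusted p 0.0413, and 0.0775 without S8 replicate 3).

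*AIR1* had no count in S2, against 1.71, 1.54 and 0.284 CPM in S8 (adjusted p 7.41e-05). AT2G16005 had no count in S2, against 0.301, 0.270 and 0.252 CPM in S8 (adjusted p 0.0321, 0.0646 without S2 replicate 3 and 0.0659 without S8 replicate 3). *GRP9* had 0.915, 0.459 and 0.0884 CPM in S2, against 4.45, 4.32 and 1.96 CPM in S8 (adjusted p 0.0243, and 0.0784 without S2 replicate 3). No outlier test was made within groups of 3 libraries, and the calls of the other 8 genes held without S2 replicate 3 and without S8 replicate 3.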

How the results depend on the processing

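Across 20 alternatives, 1 of them chosen after seeing the data, 117 of the 129 called genes named in the text were called in S2 against Col-0 under every one that tested them, and none changed sign. Of those that lost a call, *ABI3*, *BAT5* and *GSTU20* lost it in the fit of 6 libraries *PEN1* in those of 6 and of 9, and *ABI3* and AT1G76240 without replicate 3 of S2, *tt19-8* and Col-0 together; the others stand beside their values. Of the uncalled genes, *TT6* ranged in log2 fold change over the fits without 1 library from -1.20 to 0.21 (0.13 without replicate 3 of S2, *tt19-8* and Col-0 together) and *FUS3* from -0.35 to 0.16. In the fit of 6 libraries, 3321 genes were called in S2 against Col-0 (1567 higher, 1754 lower); it holds no *tt19-8* and gives no classes. In the fit of 9 libraries the count was 3431 (1577 higher, 1854 lower), with 1021 in *tt19-8* against Col-0, 2235 in S2 against *tt19-8*, 520 not restored and 32 overshot. At an adjusted p under 0.01 the counts were 3351 (1693 higher, 1658 lower), 1184, 2111, 557 and 22, with 1192 in S2 against S8. Leaving out 1 library gave 4341 to 6525 genes called (2196 to 3392 higher, 2145 to 3133 lower, 1117 to 1575 at least 2-fold), 1663 to 4012 in *tt19-8* against Col-0, 2801 to 4613 in S2 against *tt19-8*, 1609 to 3540 in S2 against S8, 831 to 1529 not restored, 36 to 120 overshot and 46 to 54 of the flavonoid list. Without replicate 3 of S2, *tt19-8* and Col-0 together the counts were 4666 called, 1075 not restored and 89 overshot, with 4175 in S2 against S8. Scaling by library totals gave 46.8% of calls higher, against 51.4%. For S2 and Col-0 the same-numbered libraries did not deviate together (correlations of 0.00, -0.04 and -0.09), so that their numbers do not pair them; with a replicate block 5853 genes were called (2970 higher, 2883 lower; 1388 at least 2-fold), 1484 were not restored, 76 overshot and 52 of the flavonoid list called. The cause of these shifts was not tested. With 3 libraries a genotype, low levels rest on few counts, 3 counts being 0.0531 to 0.0704 CPM in S2 and 0.0630 to 0.0732 CPM in Col-0.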
